A study of Mus musculus with 2 samples.

Results

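The 37 genes described here are the interferon-stimulated genes, 24 of them best known as targets of type I interferon and 13 as targets of interferon-γ, the type II interferon. They were taken by name as a given list from the 55416 genes of 2 single-cell RNA libraries of mouse tissue, and all 37 had counts in both libraries. The type I list held Isg15, Isg20, Ifit1, Ifit2, Ifit3, Rsad2, Oasl1, Oasl2, Oas1a, Oas2, Oas3, Mx1, Irf7, Irf9, Stat2, Usp18, Cmpk2, Ddx58, Ifih1, Ifi35, Ifi44, Zbp1, Bst2 and Rtp4. The type II list held Irf1, Ifi47, Igtp, Iigp1, Irgm1, Irgm2, Gbp2, Gbp3, Gbp4, Gbp5, Gbp7, Cxcl9 and Cxcl10, of which Cxcl10 answers both interferons.

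Type I interferons bind the receptor IFNAR, and the kinases JAK1 and TYK2 then switch on a factor complex that holds STAT2 and IRF9 and binds a DNA element called the ISRE. Interferon-γ, made mainly by T and NK cells, binds IFNGR and acts through JAK1 and JAK2 on another DNA element, called GAS. The 2 programs overlap widely, so that most members respond to some degree to both interferons. Many laboratory mouse strains carry a defective Mx1.

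The tissues were gastrocnemius muscle and lung, with 1 library each. Both are labelled as coming from TB mice and from a CAC mouse model, short names that the labels do not spell out, and cells were enriched for the leukocyte protein CD45 on magnetic beads before 5′ capture on the 10x Genomics platform. The series' design speaks of a tumour-bearing model under IgG, anti-PD-L1 or anti-CD8a, but neither library carries a treatment label, and the strain, age and number of mice were not given in the sources used here. Each tissue is therefore 1 library with no replicate: no difference below has a test, animal-to-animal variation is unknown, and library, depth and tissue cannot be told apart.

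Muscle gave 5547 barcodes with 14056163 UMIs (unique molecular identifiers, each counting 1 captured transcript) and lung 8481 barcodes with 34751225 UMIs. Barcodes with at least 200 genes and at most 10% mitochondrial UMIs were kept, which were 2243 in muscle and 8194 in lung; 59.5% of muscle barcodes and 3.22% of lung barcodes lay over the mitochondrial limit. Cells were assigned to classes from fixed marker genes, none of them a member, and named for those markers ("neutrophil-like"), which gave 1875 muscle and 5713 lung cells a class. The leukocyte label held for part of the muscle library: 886 of its gated cells were endothelial-like, with 0.933 CPM of Ptprc, which encodes CD45, against 1006 CPM in its neutrophil-like cells. The libraries shared 24 kept barcodes. Levels are counts per 1000000 UMIs (CPM) of all cells of a class together, and each UMI marks 1 transcript end, so they are not divided by gene length. Brackets hold exact 95% intervals, which cover counting error only and are too narrow for differences between animals. A member was called higher or lower in a comparison when its ratio was at least 2-fold and both groups together held at least 30 counts. Ifit3, Oas1a, Gbp2, Gbp3 and Gbp7 have close paralogs and Igtp and Irgm2 lie side by side, so their counts may be shared with neighbours or copies.

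The stretches upstream of 8 members are shown because they carry, or lack, the elements that define both arms of the response, and because these genes lead the results. RefSeq windows of 250 bases before and 50 bases after the start, on GRCm38.p6, were matched for 30 of the 37 members; the counts themselves were made on GRCm39. The upstream 250 bases are printed 5′ to 3′ on the strand of the gene. Capitals mark matches of GAAA, 2 bases of any kind and GAAA again (ISRE-like), or of TTCNNNGAA (GAS-like, the same on both strands). An ISRE-like match on the opposite strand appears as TTTC, 2 bases of any kind and TTTC.
Isg15, chr4:156200819-156201068, minus strand: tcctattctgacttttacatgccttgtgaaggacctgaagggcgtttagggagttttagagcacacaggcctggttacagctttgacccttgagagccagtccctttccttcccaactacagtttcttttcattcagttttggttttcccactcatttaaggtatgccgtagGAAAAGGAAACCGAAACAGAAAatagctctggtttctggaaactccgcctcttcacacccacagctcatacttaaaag
Rsad2, chr12:26456453-26456702, minus strand: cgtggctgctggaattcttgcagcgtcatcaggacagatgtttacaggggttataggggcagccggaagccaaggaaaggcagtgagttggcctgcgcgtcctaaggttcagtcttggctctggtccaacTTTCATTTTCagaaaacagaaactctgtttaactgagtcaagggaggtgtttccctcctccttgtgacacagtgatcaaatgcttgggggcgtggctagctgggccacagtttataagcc
Bst2, chr8:71537473-71537722, minus strand: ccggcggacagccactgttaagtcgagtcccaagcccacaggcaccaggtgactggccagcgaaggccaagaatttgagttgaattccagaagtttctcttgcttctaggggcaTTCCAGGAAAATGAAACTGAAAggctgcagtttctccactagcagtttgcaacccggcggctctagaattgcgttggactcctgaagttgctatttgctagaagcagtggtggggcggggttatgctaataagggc
Oasl2, chr5:114896684-114896933, plus strand: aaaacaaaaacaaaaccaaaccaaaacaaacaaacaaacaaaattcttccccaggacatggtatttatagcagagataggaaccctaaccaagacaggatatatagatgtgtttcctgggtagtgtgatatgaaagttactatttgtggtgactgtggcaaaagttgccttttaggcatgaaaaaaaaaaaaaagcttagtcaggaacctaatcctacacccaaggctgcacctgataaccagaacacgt
Irf1, chr11:53769764-53770013, plus strand: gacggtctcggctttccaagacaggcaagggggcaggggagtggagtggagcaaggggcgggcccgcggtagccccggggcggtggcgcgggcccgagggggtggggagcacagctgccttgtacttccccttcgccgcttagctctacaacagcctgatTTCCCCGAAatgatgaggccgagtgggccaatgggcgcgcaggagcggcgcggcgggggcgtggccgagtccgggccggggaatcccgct
Irgm2, chr11:58214727-58214976, plus strand: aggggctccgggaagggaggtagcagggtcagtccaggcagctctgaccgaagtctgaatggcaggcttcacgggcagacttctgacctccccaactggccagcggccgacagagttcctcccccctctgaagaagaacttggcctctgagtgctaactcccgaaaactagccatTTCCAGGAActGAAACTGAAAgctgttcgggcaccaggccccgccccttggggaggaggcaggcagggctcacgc
Gbp2, chr3:142620413-142620662, plus strand: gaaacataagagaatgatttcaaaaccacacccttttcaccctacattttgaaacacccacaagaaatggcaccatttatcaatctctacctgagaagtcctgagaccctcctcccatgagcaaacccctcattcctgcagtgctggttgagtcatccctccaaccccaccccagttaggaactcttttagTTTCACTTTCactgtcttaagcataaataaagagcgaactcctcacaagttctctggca
Cxcl10, chr5:92348890-92349139, minus strand: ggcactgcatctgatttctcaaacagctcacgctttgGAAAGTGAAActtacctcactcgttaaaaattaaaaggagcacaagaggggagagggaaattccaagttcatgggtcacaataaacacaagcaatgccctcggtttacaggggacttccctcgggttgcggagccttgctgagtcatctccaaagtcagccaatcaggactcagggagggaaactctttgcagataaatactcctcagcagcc

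Isg15 held 3 overlapping ISRE-like matches that began 78, 72 and 66 bases before the start. Rsad2 held 1 on the opposite strand at 120 bases and Gbp2 1 on the opposite strand at 59 bases, and Cxcl10 held 1 at 213 bases. Bst2 had a GAS-like match at 136 bases that ran into 2 ISRE-like matches, and Irgm2 had a GAS-like match at 75 bases followed by an ISRE-like match at 64 bases. Irf1 had a GAS-like match alone, at 90 bases. Oasl2, the member with the highest neutrophil level, had neither set of letters in this window.

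Over the 300-base windows, ISRE-like letters were present on either strand in 10 of 19 matched type I members and 8 of 11 matched type II members, against 3.99% of the 27025 genes with a window. GAS-like letters were present in 5 of 19 type I members and 5 of 11 type II members, against 9.55% of all genes. Both motifs together occurred in 2 type I members and 4 type II members, against 0.540% of all genes. The ISRE-like letters were thus no less frequent in the type II list than in the type I list. A match of letters is a description of the window and not a bound site.

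Summed over the list and among classes with at least 20 cells, type I members were highest in plasmacytoid dendritic-like cells of the lung (2872 CPM, 2602 to 3162, 22 cells). Bst2, which encodes tetherin, a protein that holds budding virus on the cell and is a known surface marker of these cells, gave 83.6% of that level, and 470.5 CPM remained without it. Lung endothelial-like cells followed with 1559 CPM over 47 cells, but 1 cell held so many of the counts that the level without it was 1107 CPM. Lung neutrophil-like cells had 1127 CPM (1096 to 1158) over 1732 cells and muscle endothelial-like cells 932 CPM (899 to 966) over 886 cells. Without the top cell of each, 1109.6 and 903 CPM remained. Oasl2 gave 33.0% of the neutrophil level and Bst2 22.6% of the muscle endothelial level. Without these leading members 755 and 721 CPM remained, so the gap between the 2 classes was smaller.

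The remaining classes had lower type I levels. Lung epithelial-like cells had 894 CPM, with Bst2 again first, and muscle C1q macrophage-like cells had 697 CPM. Lymphocytes of the lung had 468 CPM in T-like, 554 CPM in NK-like and 438 CPM in B-like cells. Satellite-like cells, the stem cells of the muscle fibre, had the lowest level at 212 CPM (149 to 294).

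Type II members had another order over the same classes. Venous-like cells, a subgroup of muscle endothelium set by its own markers, had 1826 CPM (1733 to 1922), and muscle endothelial-like cells as a whole had 999 CPM (965 to 1035). Smooth muscle-like cells of the muscle had 1199 CPM, but 8 of the 75 cells held 89.0% of the counts. It was 687 CPM without 1 cell, 1928 CPM at a mitochondrial limit of 5% and 186 CPM with classes taken from clusters, so no rank is read from it. Among leukocytes, migratory dendritic-like cells (528 CPM, 424 CPM without the top cell) and T-like cells (428 CPM, 404 to 452) were highest in lung and conventional DC2-like cells were highest in muscle (386 CPM, 345 to 430), while lung B-like cells had 172 CPM and plasma-like cells 93.3 CPM. Lung neutrophil-like cells, among the highest in type I level, had 314 CPM of type II members.

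**Figure D1:**
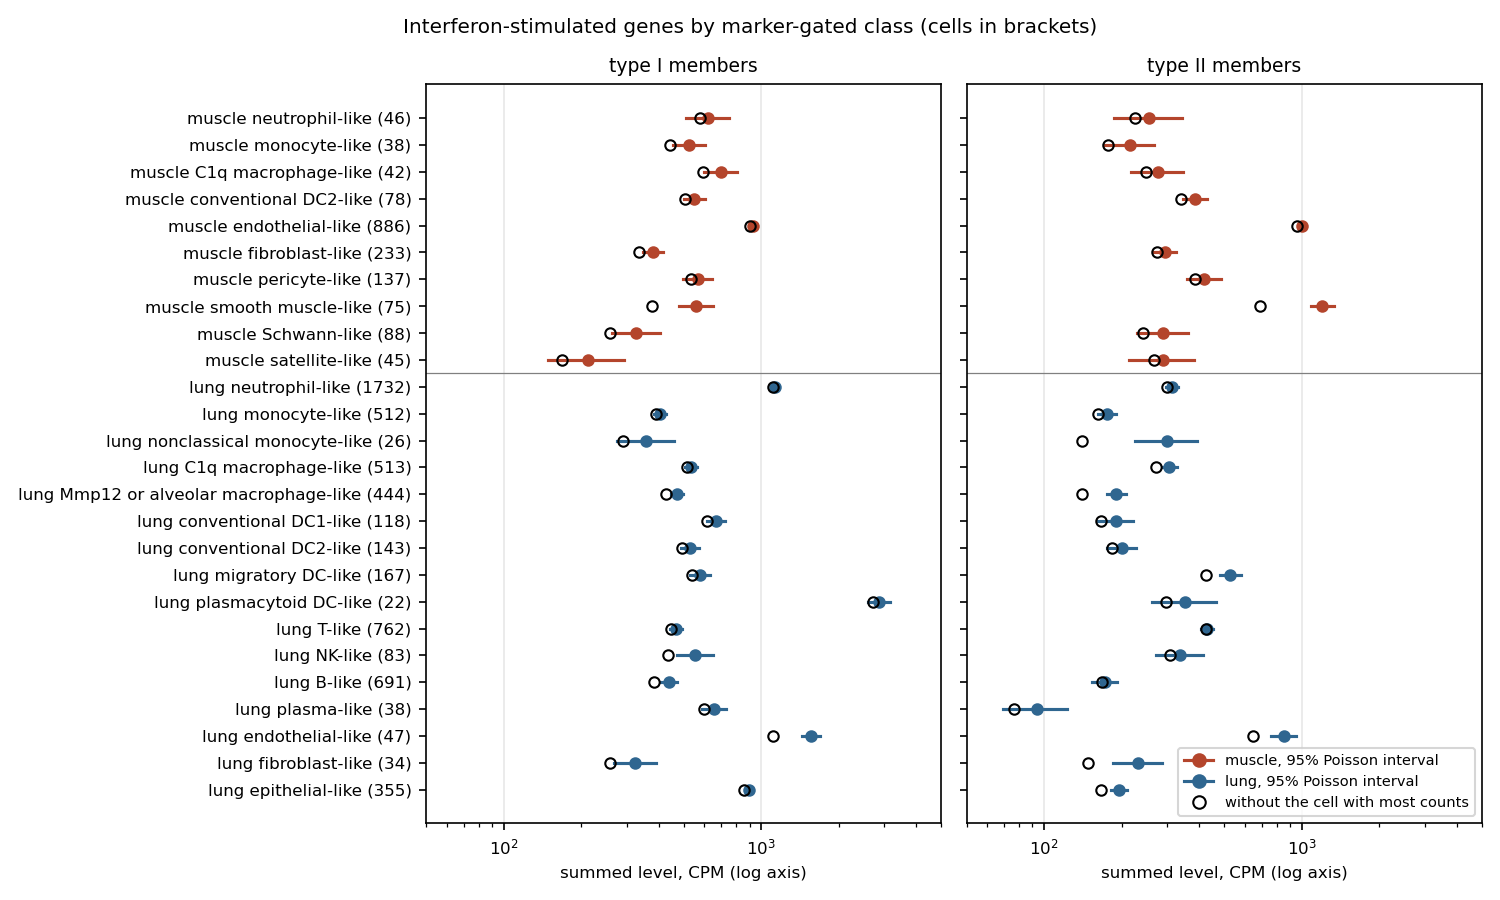
Summed level of the type I members (left) and type II members (right) in each marker-gated class of muscle and lung, in CPM on a log axis; bars are 95% Poisson intervals and open circles leave out the cell with most counts. Lung plasmacytoid dendritic-like cells lead the type I panel at 2872 CPM, and muscle endothelial-like cells stand at 999 CPM in the type II panel. The 1199 CPM of muscle smooth muscle-like cells drops to 687 CPM, under the 955 CPM of endothelial-like cells, without the top cell of each.

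For most members the highest level was not clear of the next. Each of the 37 members was ranked over the 26 groups of class and library with at least 20 cells, and only 9 had a highest level whose interval lay clear of the next. These were Isg20, Oasl2, Ifi44, Zbp1, Bst2, Irf1, Iigp1, Cxcl9 and Cxcl10. The next group's interval was wide where it had few counts, as for Irgm2 (15.9 to 81.7 CPM), so an overlap does not show equal levels. Isg15 had counts in all 26 groups, while Ifit3 was at 0 in 10 and Ifi44 at 0 in 15 of them. Free RNA can reach any droplet, so a low count does not show that a class expresses a gene. Markers of other classes had a UMI in widely different shares of the lung neutrophil-like cells with fewer than 4 type I members. The share was 85.7% for monocyte, 37.7% for conventional DC1-like, 35.3% for C1q macrophage and 20.9% for epithelial markers. It was 3.597% for T-like and 0.193% for plasmacytoid dendritic-like markers. Whether these UMIs were free RNA or the cells' own RNA was not tested.

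Oasl2, an oligoadenylate synthetase-like protein, had 372 CPM (354 to 390) in lung neutrophil-like cells and 238 CPM in muscle neutrophil-like cells, the next highest group. Bst2 had 2401 CPM in plasmacytoid dendritic-like cells and 514 CPM in lung endothelial-like cells. Isg20, an RNA exonuclease, had 220 CPM in lung epithelial-like cells and 116 CPM in plasma-like cells. Zbp1, a nucleic acid sensor of cell death, had 170 CPM in plasma-like cells (135 CPM without the top cell), against 37.2 CPM in the next group. These 4 genes thus had their highest levels in 4 different classes.

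Isg15, a ubiquitin-like modifier, was highest in lung endothelial-like cells at 220 CPM. There 1 cell carried much of the count, and 106 CPM remained without it. Muscle smooth muscle-like cells followed with 199 CPM, all cells kept. Their summed type I level was 558 CPM, and 376 CPM without 1 cell. Over the alternatives that level lay between 132 and 792 CPM. No rank of Isg15 is read between these classes. Rsad2, which encodes the antiviral enzyme viperin, had 106 CPM in lung endothelial-like cells (54.4 CPM without the top cell) and 92.2 CPM in lung neutrophil-like cells (84.5 CPM without it). The Ifit genes, whose products bind viral RNA, were low everywhere: the highest levels were 40.1 CPM for Ifit1 in muscle endothelial-like cells, 41.4 CPM for Ifit2 in Schwann-like cells on 11 counts, and 51.7 CPM for Ifit3 in lung endothelial-like cells on 19 counts. Of these 19 counts 9 came from 1 cell, and 29.2 CPM remained without it. Mx1 reached 27.7 CPM in plasmacytoid dendritic-like cells on 4 counts, and had no count in lung neutrophil-like cells, where 3 counts would be 0.661 CPM.

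The other type I members, apart from Ifi44, had peaks that overlapped the next group. Muscle C1q macrophage-like cells were first for Oasl1 (70.8 CPM, 26.3 CPM without the top cell), Oas2 (29.8 CPM), Rtp4 (41.0 CPM) and Ifih1, the RNA sensor MDA5 (93.1 CPM), and the lung cells of that class for Oas1a (32.1 CPM). Plasmacytoid dendritic-like cells were first for the transcription factors Irf7 (76.1 CPM), Irf9 (55.4 CPM) and Stat2 (111 CPM), each on 16 counts or fewer. The RNA sensor Ddx58 (RIG-I) was first in NK-like cells (85.0 CPM), Ifi35 in conventional DC1-like cells (129 CPM), and Usp18, which removes ISG15 and damps the receptor, in epithelial-like cells (21.2 CPM). Oas3 was first in muscle neutrophil-like cells (40.7 CPM on 7 counts), and Cmpk2 (32.7 CPM) and Ifi44 (38.1 CPM) in lung endothelial-like cells.

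Among type II members, Iigp1, an immunity-related GTPase that attacks the vacuoles of intracellular parasites, had 355 CPM in muscle endothelial-like cells and 190 CPM in lung endothelial-like cells, and was at 0 in 5 groups. Irf1, a transcription factor induced early by interferon-γ, had counts in all 26 groups and was highest in smooth muscle-like cells at 398 CPM (304 CPM without the top cell), a class whose summed type II level was 186 CPM with classes from clusters. Cxcl10, a chemokine that draws T cells through CXCR3, had 552 CPM in smooth muscle-like cells, where 114 of 172 counts came from 1 cell and 192 CPM remained without it, close to the 199 CPM of muscle conventional DC2-like cells. Cxcl9, a second ligand of that receptor, had 108 CPM in migratory dendritic-like cells (60.4 CPM without the top cell) and 63.0 CPM in lung C1q macrophage-like cells. In lung B-like cells Cxcl9 was at 0.552 CPM, and it was at 1.10 CPM in neutrophil-like cells.

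Guanylate-binding proteins coat pathogens and their vacuoles, and 2 of the 5 had their highest levels in migratory dendritic-like and then endothelial-like cells of the lung. Gbp2 had 117 CPM in the migratory dendritic-like and 92.5 CPM in the endothelial-like cells, and Gbp5 had 96.3 and 51.7 CPM. Gbp3 (54.4 CPM), Gbp4 (54.4 CPM) and Gbp7 (76.2 CPM) were first in lung endothelial-like cells, each on 28 counts or fewer, and next came NK-like cells (29.6 CPM), muscle endothelial-like cells (52.9 CPM) and muscle C1q macrophage-like cells (59.6 CPM). Without its top cell lung Gbp4 was at 28.1 CPM, below muscle. Irgm1 (42.9 CPM) and Irgm2 (48.2 CPM) were first in muscle endothelial-like cells and Igtp in lung T-like cells (59.3 CPM). Ifi47 was at 67.3 CPM in smooth muscle-like cells, of which 12.98 CPM remained without 1 cell, so that the 66.1 CPM of lung T-like cells is the broader level.

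**Figure D2:**
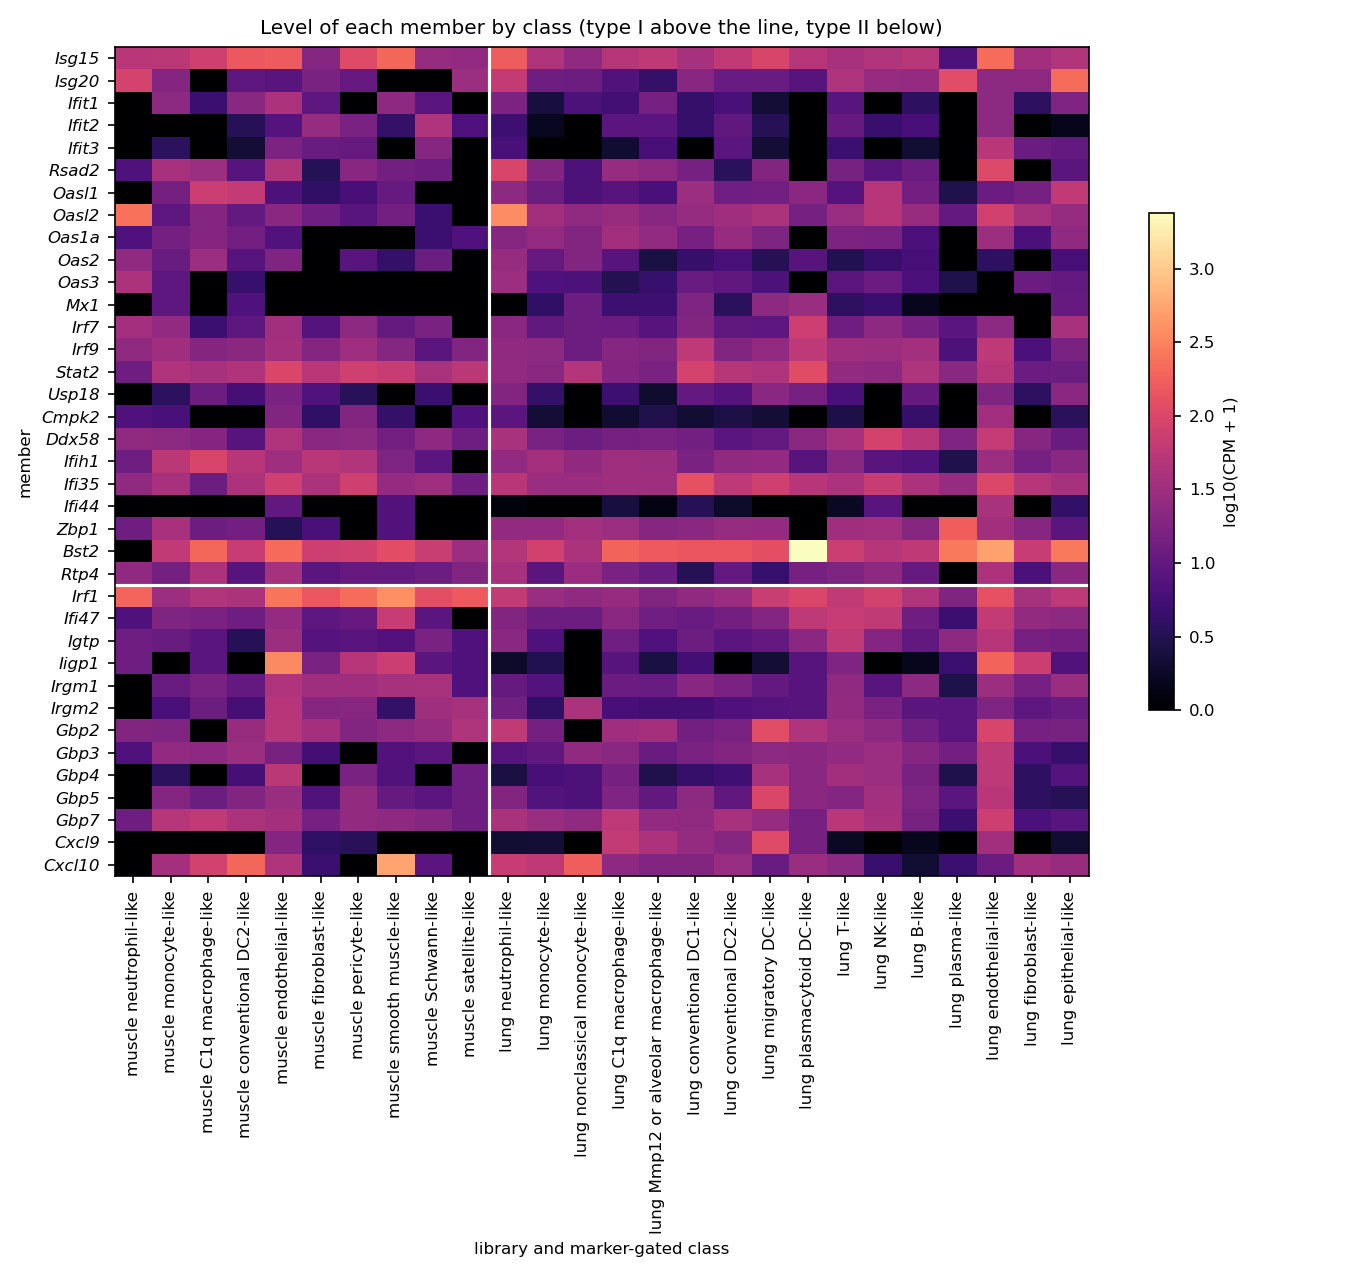
Level of each of the 37 members (down, type I above the line) in each library and marker-gated class with at least 20 cells (across), as log10(CPM + 1). Bst2 in plasmacytoid dendritic-like cells, Oasl2 in neutrophil-like cells and Iigp1 in muscle endothelial-like cells stand out, while Irf1 and Isg15 have counts in every column.

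Neutrophil-like cells of the lung were set against all other gated lung cells. The type I list was 0.94 log2 higher (0.89 to 0.99): 9 of 24 members were higher and 3 lower, against 9.5% of 14475 genes higher and 49.6% lower. The median over the type I members was 0.25, against -0.99 over all genes. Oasl2 had 372 CPM in neutrophil-like cells and 28.0 CPM in the other cells (log2 ratio 3.73), Rsad2 had 92.2 and 16.1 CPM (2.51), and Isg15 had 166 and 49.9 CPM (1.73). Ifit1, Oas2, Oas3, Usp18, Cmpk2 and Rtp4 were also higher, and Bst2, at 45.6 CPM in neutrophil-like cells and 167 CPM in the others, Mx1 and Ifi44 were lower.

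For the summed type II list the difference was smaller, 0.28 (0.20 to 0.37). The median over its members was 0.24, close to the 0.25 of the type I members, so the lists differed in sum and not in median. Oasl2 alone gave 33.0% of the type I counts of neutrophil-like cells, and 755 CPM remained without it. Of the 13 type II members Gbp2 and Cxcl10 were higher and Cxcl9, Iigp1, Gbp3 and Gbp4 lower. Cxcl10 had 67.0 CPM in neutrophil-like and 25.8 CPM in other lung cells, whereas Cxcl9 had 1.10 and 20.4 CPM (log2 ratio -4.21) and Iigp1 had 0.882 and 9.16 CPM (-3.38). The chemokine pair thus parted, with Cxcl10 and not Cxcl9 in neutrophil-like cells. With ribosomal, mitochondrial and rRNA-like genes left out of the totals, the type II ratio was 0.09 and the type I ratio 0.75.

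Lung neutrophil-like cells were divided by 3 genes that are not members: Ccl3-high (737 cells), Retnlg-high (221), Cxcl2-high (379) and a remainder (395). A split by Siglecf, a gene of lung neutrophils in some tumours, crossed these groups and held 385 positive cells. Thresholds were set after seeing the data, and of the Ccl3-high cells 101 lay within 1.5 times the threshold. The type I level was 1188 CPM in Ccl3-high, 1129 CPM in Retnlg-high, 1179 CPM in Cxcl2-high, 949 CPM in the remaining and 1153 CPM in Siglecf-positive cells, so that the named subsets were within 10% of each other. The type II level was 327, 258, 378, 257 and 318 CPM in the same order. The spread between subsets was small beside the spread between classes.

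Ccl3-high cells differed from the other lung neutrophil-like cells by 0.14 log2 (0.07 to 0.22) in type I members, and 2 of the 20 measured were higher, Rsad2 at 130 and 60.6 CPM (1.10) and Ifit1 at 21.2 and 10.6 CPM (1.00); 1.73% of all 7642 genes were higher and 1.98% lower. None of 10 type II members passed the fold, and Cxcl10 was at 89.1 CPM in Ccl3-high and 48.4 CPM in the other cells (0.88). Member medians were 0.10 for type I and -0.07 for type II, against -0.03 over all genes. As a mean of per-cell CPM the type I ratio was -0.02.

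Retnlg-high cells were level with the others in type I sum (log2 ratio 0.00, -0.12 to 0.13), with 1 of 20 members higher (Oas3) and 4 lower (Ifit1, Oas1a, Ifi35 and Bst2). All genes had 2.53% higher and 27.1% lower, with a median of -0.52, against a median of -0.06 over the type I members. Rsad2 had 49.8 CPM in Retnlg-high and 97.9 CPM in other cells, and Isg20 had 107 and 55.6 CPM. Type II members had a log2 ratio of -0.31, with a median of -0.30, and 4 of 10 members were lower (Igtp, Irgm1, Gbp3 and Cxcl10). A single cell held much of what remained: without it and the top cell of the other group the type II ratio was -1.07, and Cxcl10, at 31.4 CPM in Retnlg-high cells against 71.9 CPM in others, was at 3.71 CPM without its top cell.

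Cxcl2-high cells differed by 0.08 (-0.02 to 0.18) in type I and 0.35 (0.17 to 0.52) in type II members. The medians were 0.00 and 0.39, against -0.13 over all genes. Only Rtp4 passed the fold, at 20.7 CPM in Cxcl2-high and 41.5 CPM in the other cells, against 0.589% of all genes higher and 6.71% lower. Irf1 had 81.6 and 57.8 CPM, Oasl2 451 and 352 CPM, and Ifi47 27.2 and 14.4 CPM, each short of the 2-fold limit. With a wider lead between class scores the type II ratio was 0.10.

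Siglecf-positive cells differed by 0.05 in type I and 0.03 in type II members, with intervals that held 0. Oas1a (32.2 CPM in Siglecf-positive and 13.7 CPM in other cells) and Gbp3 (12.9 and 4.86 CPM) were higher, which is 1 of 20 and 1 of 10 members, against 7.07% of all genes higher and 1.73% lower. The medians were 0.13 and -0.13, against 0.31 over all genes. Median depth was 2784 UMIs in Siglecf-positive and 2120 UMIs in the other cells.

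**Figure D3:**
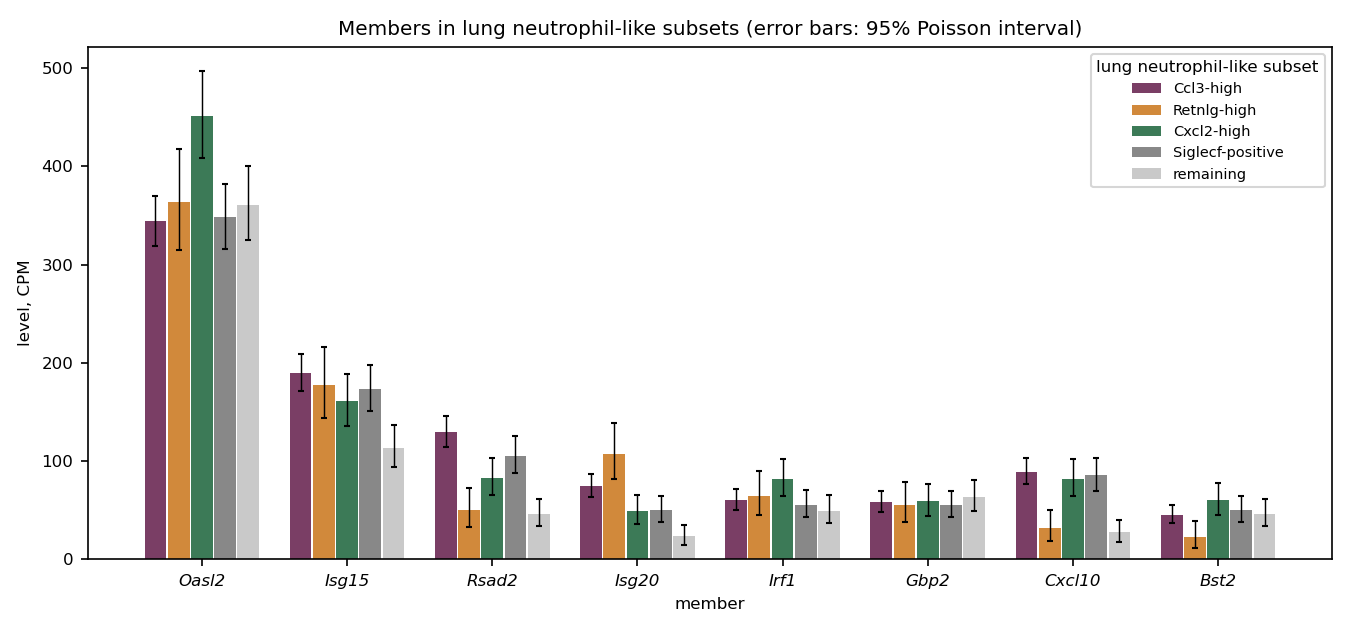
Level in CPM of chosen members in the lung neutrophil-like subsets, with 95% Poisson intervals. Oasl2 lies between 344 and 451 CPM in every subset, while Rsad2 is 130 CPM in Ccl3-high cells and 49.8 CPM in Retnlg-high cells.

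The members were spread unevenly over single neutrophils. Each cell was thinned to 1000 UMIs to hold depth equal, which left 1615 lung neutrophil-like cells, and 834 of them then had no type I member at all. At least 4 different type I members were present in 58 cells (3.59%), with 27 cells at exactly 4 and 55 just under the limit at exactly 3. The limit was set on the data, and the 58 cells are the upper range of a score and not a type. Without thinning the share was 11.8%.

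The same count found 0 of 45 muscle neutrophil-like cells, which had at most 2 members; 0 of 45 allows a share of up to 7.87% (Clopper-Pearson). It found 22 of 876 muscle endothelial-like cells (2.51%), 7 of 214 lung epithelial-like, 5 of 488 lung monocyte-like, 2 of 729 lung T-like and 2 of 649 lung B-like cells. The share was 7.69% in lung endothelial-like cells, on 3 of 39, and 3.41% of the 908 lung cells that met no class. Within the lung neutrophils the share was 4.61% of Ccl3-high, 4.62% of Retnlg-high, 2.77% of Cxcl2-high, 1.92% of remaining and 4.19% of Siglecf-positive cells. Such cells were thus present in every subset.

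**Figure D4:**
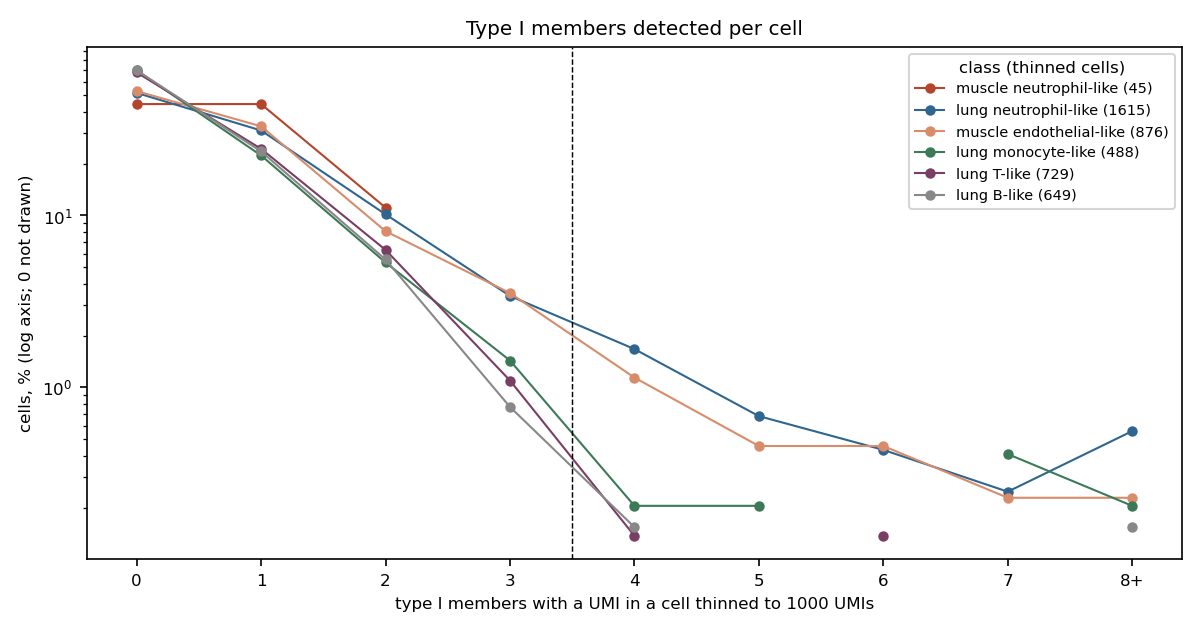
Share of cells (log axis, %) by the number of type I members with a UMI after thinning to 1000 UMIs, for the classes in the legend; the dashed line marks the limit of 4. Lung neutrophil-like cells have a long tail, with 58 of 1615 at 4 or more, and muscle neutrophil-like cells end at 2.

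Type II members had no part in the choice of the 58 cells. They had 2757 CPM in these cells and 212 CPM in the other 1557 (log2 ratio 3.70, 3.54 to 3.86), and 10 of 10 measured type II members were higher, against 5.47% of 7591 genes higher and 12.5% lower. Cxcl10 had 1220 and 19.9 CPM (5.93), Gbp2 had 429 and 44.3 CPM (3.27), Gbp5 had 184 and 11.0 CPM, and Irf1 had 273 and 52.5 CPM. The type I members that chose the cells were at 8081 and 837 CPM, which the choice fixes, led by Isg15 at 1727 and 99.9 CPM, Rsad2 at 1649 and 27.9 CPM and Oasl2 at 947 and 347 CPM. Oasl2 had the smallest ratio of these genes (1.45).

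Interferon-induced genes outside the 37 members were higher as well. Of 29 such genes on a fixed list 19 were measured and 15 were higher, with Slfn4 at 2189 CPM in the 58 cells and 209 CPM in the rest, Slfn5 at 340 and 18.5 CPM, and Ifi204 at 228 and 14.3 CPM. Adar, an RNA editor that damps sensing, was also higher, while Socs3, an inhibitor of cytokine signalling, had 808 and 940 CPM. The 10 neutrophil markers summed to a median of 309 UMIs per 10000 in the 58 cells and 316 in the rest, and the median of every other class's markers was 0 in both except the monocyte list (15.8 and 12.5). At least 1 UMI of the Mmp12 or alveolar macrophage markers was found in 43.1% of the 58 cells and 30.2% of the rest, and of the endothelial markers in 17.2 and 10.7%. The part of other cells' RNA in these values was not tested. Median depth was 2684 and 2343 UMIs.

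Muscle and lung were compared within the 6 classes that had at least 30 cells in each. In neutrophil-like cells (46 in muscle and 1732 in lung) the type I level was 622 CPM in muscle, against 1127 CPM in lung, a log2 ratio of -0.86 (-1.15 to -0.58). None of 20 measured members was higher and 8 were lower, against 7.03% of 7713 genes higher and 23.3% lower, and their median was -0.66 against -0.23. Rsad2 had 1 count (5.82 CPM) in muscle and 418 counts (92.2 CPM) in lung, with a log2 ratio of -3.99 (-9.29 to -1.5). Isg15 had 52.3 and 166 CPM (-1.66, -2.80 to -0.73), and Oasl2 had 238 and 372 CPM (-0.64, -1.13 to -0.20). Oas1a, Stat2, Ifih1, Ifi35 and Zbp1 were also lower, on few muscle counts, and at a mitochondrial limit of 5% Oas1a (0.44) and Stat2 (0.09) turned round. Bst2 had no count in muscle, where 3 counts would be 17.4 CPM, and 45.6 CPM in lung. The lung level was uneven over cells. The 58 lung cells with 4 or more type I members held 1451 of the 5110 lung type I counts. The other 1557 thinned lung cells were at 837 CPM, nearer to the 622 CPM of muscle. No alternative left out these 58 cells as a group, so a shift across the whole class was not tested.

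Type II members had 256 CPM in muscle, against 314 CPM in lung neutrophil-like cells, a log2 ratio of -0.29 whose interval (-0.76 to 0.14) held 0. The 10 measured members did not move one way: Irf1 was higher, at 192 CPM in muscle, against 62.6 CPM in lung (1.62, 1.05 to 2.14). Ifi47, Gbp2, Gbp7 and Cxcl10 were lower, against 7.03% of 7713 genes higher and 23.3% lower. The member median was -0.54, against -0.23 over all genes, and 4 of the 10 members entered it at the bound of 3 counts. Gbp2 had 17.4 and 59.1 CPM (-1.76) on 3 muscle counts, Gbp7 11.6 and 37.5 CPM on 2, and Cxcl10 had no count in muscle and 67.0 CPM in lung. Irf1 alone made up 75.0% of the type II level in muscle. Retnlg-high cells were 29 of the 46 muscle cells and 12.8% of the lung cells. In Retnlg-high cells alone the type I ratio was -0.82 (642 CPM in muscle, against 1129 CPM in lung), the type II ratio was 0.03, Irf1 had 185 and 64.6 CPM and Isg15 had 26.4 and 177 CPM, and no muscle cell was Siglecf-positive.

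In endothelial-like cells (886 in muscle and 47 in lung) the sums of the 2 lists parted. Type I members had 932 CPM in muscle, against 1559 CPM in lung (-0.74, -0.87 to -0.61), with 1 of 20 higher and 8 lower, against 14.6% of 9069 genes higher and 12.4% lower; the medians were -0.63 and -0.03. Bst2 had 211 and 514 CPM (-1.29), Rsad2 had 44.8 and 106 CPM (-1.25), Oasl2 had 20.8 and 78.9 CPM (-1.92), and Isg15 had 163 and 220 CPM (-0.43). Isg20, Ifit2, Ifit3, Oas1a (6.22 and 29.9 CPM) and Ifi44 (9.02 and 38.1 CPM) were lower too, and Oas2 was higher at 16.5 and 2.72 CPM, the lung value being 1 count. Without the top cell of each library the type I ratio was -0.29. Without the lung cell with most counts of each gene lung Isg15 was at 106 CPM, below muscle, and lung Rsad2 at 54.4 CPM. In the same way lung Ifit3 was at 29.2 CPM and lung Ifi44 at 17.5 CPM.

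Type II members had 999 CPM in muscle, against 849 CPM in lung endothelial-like cells (0.24, 0.07 to 0.41), although the median over its 13 members was -0.71. Irf1 at 257 and 128 CPM (1.01), Irgm2 at 48.2 and 16.3 CPM (1.56) and Cxcl10 at 42.3 and 10.9 CPM (1.96, but -0.35 as a mean of per-cell CPM) were higher, and Gbp3 at 14.0 and 54.4 CPM (-1.96), Gbp7 and Ifi47 were lower. Iigp1, the largest contributor, had 355 and 190 CPM (0.90, 0.55 to 1.27), just under the 2-fold limit. The sum and the median differ in sign, with the abundant Iigp1 and Irf1 above 0 and most of the other members below it. As a mean of per-cell CPM the ratio was -0.12. Vessel types were not matched between the libraries: muscle held 350 capillary-like cells and lung none. Venous-like cells (141 in muscle and 15 in lung) had 1826 and 772 CPM of type II members. Arterial-like cells (148 and 13) had 710 and 818 CPM, the other direction. Vessel type and tissue therefore cannot be told apart in the endothelial ratios.

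Muscle endothelial-like cells also stood above the other gated muscle cells. Type I members had 932 CPM in endothelial-like and 503 CPM in other cells (0.89, 0.81 to 0.97), with 13 of 22 higher and 2 lower (Oasl1 and Zbp1), and type II members had 999 and 373 CPM (1.42, 1.34 to 1.5), with 8 of 13 higher and none lower. The background was 11.5% of 12180 genes higher and 22.2% lower, and the medians were 1.08 and 1.10, against -0.07. Iigp1 had 355 and 25.8 CPM (3.78), Gbp4 had 52.9 and 5.49 CPM (3.27), Cxcl9 had 18.3 and 1.83 CPM (3.32), Igtp 29.9 and 6.71 CPM (2.15), and Ifi44 9.02 and 0.814 CPM (3.47).

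Within that endothelium the summed type II level was highest in venous-like cells (141) and the summed type I level in capillary-like cells (350). Iigp1 had 828 CPM in venous-like, 229 CPM in capillary-like and 129 CPM in arterial-like cells, Gbp4 had 113, 40.6 and 28.7 CPM, and Irgm1 had 93.6, 31.1 and 28.7 CPM in the same order. Irf1 did not follow, with 265 CPM in venous-like, 225 CPM in capillary-like and 320 CPM in arterial-like cells. Cxcl10 was at 166 CPM in venous-like cells (65.5 CPM without the top cell), 1.89 CPM in capillary-like cells and 0 in arterial-like cells, and Cxcl9 was at 49.3 CPM (21.8 CPM without it), 18.9 CPM and 0. Bst2, at 159, 302 and 188 CPM, and Rsad2, at 20.2, 79.2 and 25.5 CPM, had their highest level in capillary-like cells, where the type I list summed to 1161 CPM, against 948 CPM in venous-like and 831 CPM in arterial-like cells. Isg15 was at 225, 173 and 150 CPM and Ifit1 at 77.1, 46.2 and 19.1 CPM, highest in the venous-like cells with every cell kept. Of the 129 Ifit1 counts of muscle endothelial-like cells 26 came from 1 cell, so no rank is read for Ifit1. Without their top cell the venous-like cells had 830 CPM of type I members.

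Conventional DC2-like cells (78 in muscle and 143 in lung) differed most in the chemokine Cxcl10. It had 199 CPM (170 to 232) in muscle and 28.0 CPM (19.3 to 39.4) in lung, a log2 ratio of 2.83 (2.28 to 3.41), and 158 CPM remained in muscle and 21.5 CPM in lung without the top cell. Oasl1, a regulator of Irf7 translation, had 62.1 and 11.9 CPM (2.38), although 31 of its 53 muscle counts came from 1 cell, and Isg15 had 151 and 61.2 CPM (1.30). Summed type II levels were 386 CPM in muscle, against 200 CPM in lung DC2-like cells (0.95, 0.70 to 1.20), with Cxcl10 higher, none lower and 5 members measured. Cxcl10 alone gave 51.7% of the muscle level, and 186 CPM remained without it. In lung it gave 28.0 of the 200 CPM, so most of the summed difference lay in this 1 gene. The type I list was at 550 CPM in muscle, against 529 CPM in lung (0.05, -0.12 to 0.23). Isg15, Oasl1 and Ifih1 were higher, and Oasl2 (9.38 and 31.4 CPM), Oas1a, Zbp1 and Bst2 (65.6 and 144 CPM) lower, among 10 type I members, against 4.44% of 6648 genes higher and 14% lower. Medians were -0.27 for type I and 0.72 for type II members, against -0.25 over all genes.

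C1q macrophage-like cells (42 in muscle and 513 in lung) had type I levels of 697 CPM in muscle, against 534 CPM in lung (0.38, 0.16 to 0.60). Oasl1 at 70.8 and 7.12 CPM (3.31), Ifih1 at 93.1 and 31.0 CPM (1.59), Stat2 and Rtp4 were higher and Irf7, Ifi35 and Zbp1 lower, among 14 members, against 8.8% of 7902 genes higher and 12.8% lower. Type II levels were 276 and 306 CPM (-0.15, -0.51 to 0.19), and the chemokines parted here too: Cxcl10 had 82.0 and 22.4 CPM (1.87), while Cxcl9 had no count in muscle, where its ratio was at or below -2.50, and 63.0 CPM in lung. Gbp2 likewise had no muscle count and 31.7 CPM in lung, which makes 1 of 11 type II members higher and 2 lower. The medians were 0.14 and -0.31, against -0.01. With classes taken from clusters the type I ratio was -0.10, and with a wider lead between class scores it was -0.01, so the direction depended on the gate.

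In monocyte-like cells (38 in muscle and 512 in lung) the type I list had 523 CPM in muscle, against 405 CPM in lung (0.37, 0.15 to 0.58), and the type II list 215 and 175 CPM (0.29, -0.06 to 0.63). Irf7 (23.9 and 8.79 CPM), Rsad2 (37.2 and 17.0 CPM) and Stat2 (42.5 and 20.2 CPM) were higher and Oasl2 (7.97 and 32.2 CPM, -2.02) lower among 16 type I members, and Gbp3 (23.9 and 8.49 CPM) was higher among 6 type II members. The background was 9.23% of 8243 genes higher and 12.1% lower, and the medians were 0.56 and 0.36, against 0.01. As a mean of per-cell CPM the type I ratio was -0.03, and Rsad2 reversed with classes from clusters (-1.33).

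Fibroblast-like cells (233 in muscle and 34 in lung) had type I levels of 381 and 325 CPM (0.23, -0.06 to 0.53) and type II levels of 294 and 231 CPM (0.35, 0.00 to 0.71). Irf1 had 147 CPM in muscle, against 35.8 CPM in lung (2.04), Stat2 had 52.2 and 11.0 CPM (2.25), Ifih1 had 49.9 and 13.8 CPM (1.86), and Iigp1 had 15.1 and 71.5 CPM (-2.24). Of 7 type I members Ifit2, Stat2 and Ifih1 were higher, and of 4 type II members Irf1, Irgm1 and Gbp2 were higher and Iigp1 lower, against 17.8% of 7468 genes higher and 12.2% lower. The medians were 0.20 and 1.27, against 0.01. Few lung cells stood behind these values. As a mean of per-cell CPM the ratio was -0.85 for type I and -1.36 for type II members, -1.07 for Irgm1 and -0.21 for Gbp2, and at a mitochondrial limit of 5% the type II ratio was -0.04.

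**Figure D5:**
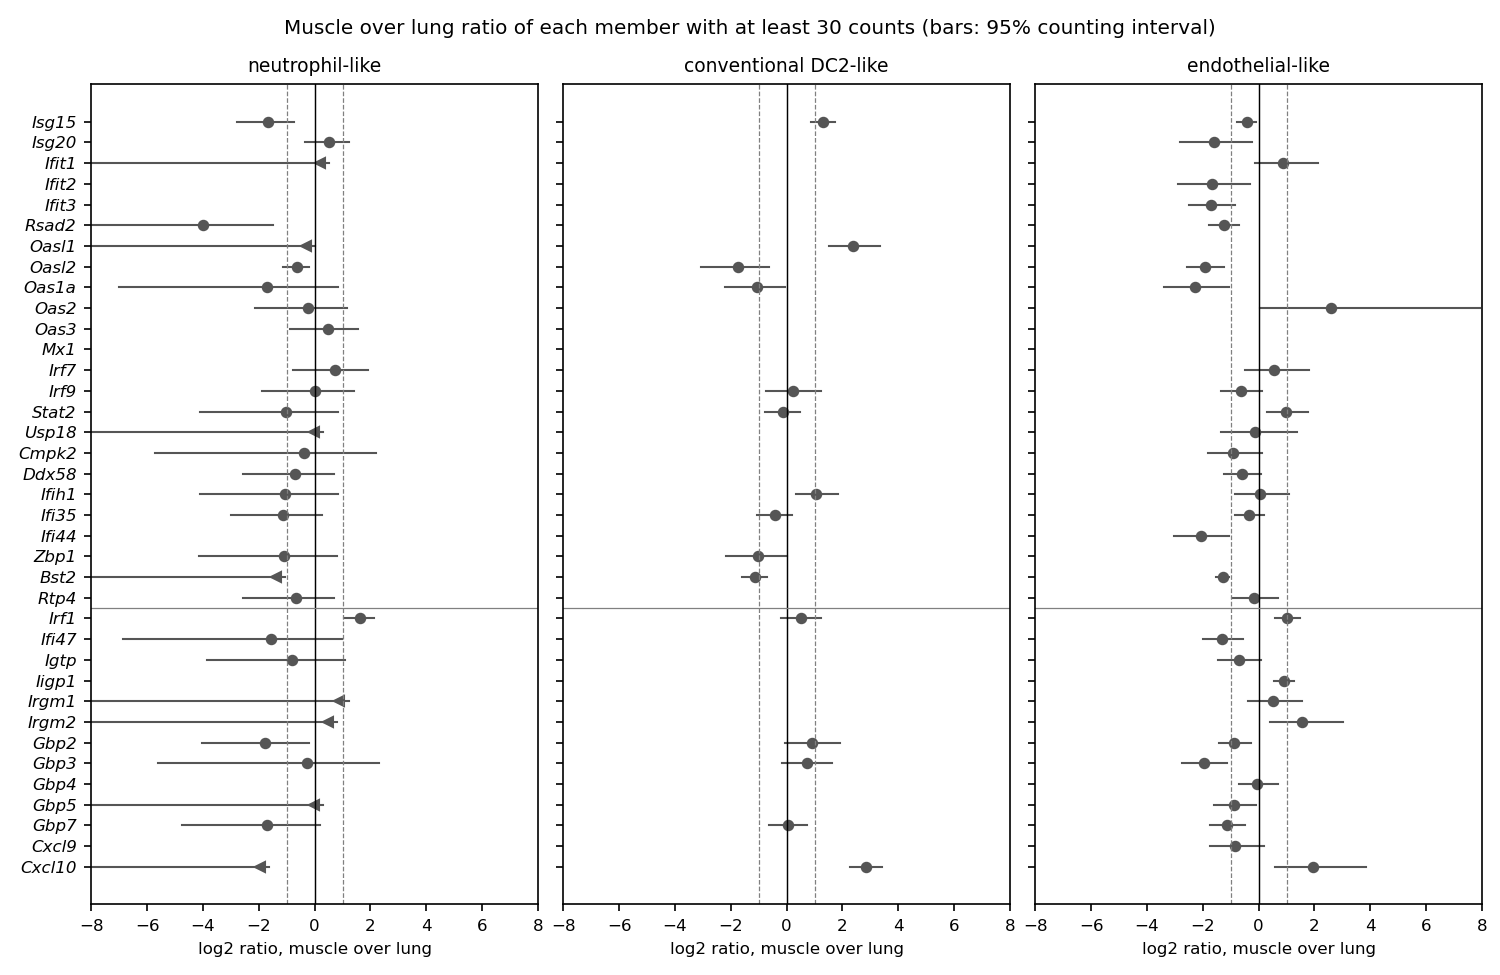
Log2 ratio of muscle over lung for each member with at least 30 counts in both libraries together. Neutrophil-like, conventional DC2-like and endothelial-like cells have 1 panel each, with 95% counting intervals. Values right of 0 are higher in muscle. Irf1 lies right of 0 in neutrophil-like and endothelial-like cells, and Oasl2 lies left of 0 in every panel.

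In lung T-like cells the type II level was highest where Foxp3, the factor of regulatory T cells, was detected. Foxp3-positive cells (141) had 696 CPM (630 to 768) of type II members, against 375 CPM in Foxp3-negative CD4 cells (140) and 314 CPM in CD8 cells (176), while type I members were at 594, 445 and 391 CPM. Gbp7 had 124 CPM in Foxp3-positive, 31.1 CPM in Foxp3-negative CD4 and 39.9 CPM in CD8 cells, and Igtp had 104, 44.7 and 27.8 CPM. Gbp5 had 33.1, 15.5 and 6.04 CPM and Irf1 80.1, 50.5 and 60.4 CPM. Ifi47 did not follow this order, with 71.4 CPM in Foxp3-positive, 48.6 CPM in Foxp3-negative CD4 and 79.7 CPM in CD8 cells.

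RNA of the interferon genes counted here was rare in both libraries. Ifnb1 had 36 UMIs in 9 muscle cells, 19 of them in 1 cell, and 5 UMIs in 3 lung cells; conventional DC2-like cells held 21 of the muscle UMIs (24.6 CPM) in 2 cells. Ifng had 1 UMI in muscle and 66 UMIs in 37 cells in lung, of which 39 were in T-like cells (13.4 CPM) and 22 in NK-like cells (81.3 CPM). Ifna1, Ifna2, Ifna4, Ifne, Ifnl2 and Ifnl3 had none in either library, and Ifnk had 1 UMI in muscle. RNA of the type I interferons named here was thus near the detection limit of these libraries, and no other Ifna gene was counted.

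The receptors were present across classes. Ifnar2 ranged between 36.8 CPM in lung epithelial-like cells and 256 CPM in plasmacytoid dendritic-like cells, and Ifngr1 between 35.5 CPM in plasma-like and 861 CPM in NK-like cells. Of 5 measured receptor genes, 1 was higher in muscle than lung neutrophil-like cells, Ifngr2 at 157 and 66.6 CPM (1.24). Jak2, a kinase of the interferon-γ receptor, was lower at 157 CPM in muscle, against 525 CPM in lung (-1.74), as was Irf3. Among inhibitors Socs3 (413 and 934 CPM) and Adar were lower. Of 19 measured induced genes outside the members 7 were lower and the 3 higher ones were Ifitm1 (6606 and 2548 CPM), Ifitm2 and Ifitm3, membrane proteins that hinder viral entry. Over all genes 7.03% were higher and 23.3% lower in this comparison.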

How the data were processed

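As deposited by the authors, the matrices hold whole-number UMI counts for each gene in each barcode, with no normalization. The submitters' processing notes name Cell Ranger 7.0.1 and GRCm39, and which annotation was used is not given in the sources used here. Barcodes with at least 200 genes and at most 10% mitochondrial UMIs were kept. A cell joined 1 of 23 marker classes at a score of at least 0.5 and a lead of 0.25 over the next, with at least 2 markers detected; cells that met several classes were left out as possible doublets, and simulated doublet scores (100 muscle and 556 lung cells removed) were an alternative. Gate and subset thresholds (10 UMIs per 10000 for Ccl3 and Retnlg, 100 for Cxcl2, 1 UMI for Siglecf) were set after seeing the data, and the members and gene lists were chosen with earlier results of these data known. Counts and totals were summed per class and library with Poisson intervals, ratios had conditional binomial intervals and shares Clopper-Pearson intervals, and groups at 0 entered medians at a bound of 3 counts. No p-value was computed because each tissue has 1 library. The ratio code was tested on simulated data. Named genes were those the lists are known for, the 5 highest and the 5 with the largest ratio in each comparison, and the peak of each member. Python 3.11.15, scipy 1.17.1, scanpy 1.11.5 and edgeR 4.0.16 (TMM factors) were used; alternatives covered filters, class and subset rules, totals, per-cell means and thinning. Some genes of the fixed pathway lists are not reported here.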

Additional observations from a re-analysis of the deposited data

Results flagged for a closer look

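Members also had counts in barcodes that the comparisons did not use, above the 3 counts that a level of 0 allows. Muscle barcodes over the mitochondrial limit (3301 of 5547) held 302.0 CPM of type I and 233.5 CPM of type II members, and muscle cells that met no class (197) held 430.1 and 393.7 CPM. Lung barcodes over the limit (273) held 360.5 CPM of type I and 228.8 CPM of type II members, and lung cells that met no class (1750) held 812 and 285 CPM. These lung cells had a median of 1042 UMIs, and their leading type I member was Oasl2, which gave 15.9% of their type I counts. What these barcodes are was not tested.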

How the results depend on the processing

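No paired analysis was possible because each tissue has 1 library. Over all results 3433 of 3749 recomputed values stayed within the counting interval or within 1.5 times the count, 299 moved out of it and 17 reversed. Most of these values, 2899, were ratios of single members, of which 2774 stayed. Of 242 list ratios 195 stayed, 40 moved and 7 reversed. Of 478 class levels 355 stayed and 123 moved. The neutrophil type I ratio of muscle over lung lay between -1.08 and -0.76, and the conventional DC2-like type II ratio, with Cxcl10 giving 51.7% of the muscle level, between 0.80 and 1.13, in all alternatives run for each. As a mean of per-cell CPM, the type I ratio of muscle over lung was -0.03 in monocyte-like, 0.93 in C1q macrophage-like, -0.43 in endothelial-like and -0.85 in fibroblast-like cells, and the type II ratio was -0.12 in endothelial-like and -1.36 in fibroblast-like cells; the type I ratio was -0.02 for Ccl3-high and -0.07 for Siglecf-positive cells, the class ratios were 1.09 (type I) and 0.14 (type II) for lung neutrophil-like and 0.80 and 1.17 for muscle endothelial-like cells, and among members Rsad2 in monocyte-like cells was -0.69, Cxcl10 in endothelial-like cells -0.35, and Irgm1 and Gbp2 in fibroblast-like cells -1.07 and -0.21. With classes from clusters, the type I ratio of muscle over lung was 0.64 in monocyte-like and -0.10 in C1q macrophage-like cells, type I was 0.03 for Ccl3-high, 0.18 for Cxcl2-high and -0.11 for Siglecf-positive cells, type II was 0.40 for lung neutrophil-like cells, and Rsad2 (-1.33) and Oasl2 (0.17) in monocyte-like and Stat2 (-0.49) and Ifih1 (-0.07) in C1q macrophage-like cells reversed. With a lead of 0.5 between class scores, type I was 0.04 in monocyte-like, -0.01 in C1q macrophage-like and -0.15 in conventional DC2-like cells and type II -0.41 in monocyte-like cells; type I was 0.28 for Ccl3-high and -0.15 for Cxcl2-high, 0.89 for lung neutrophil-like and 0.97 for muscle endothelial-like cells, and type II 0.10 for Cxcl2-high cells. At a mitochondrial limit of 5%, type I was 0.11 in C1q macrophage-like and -0.06 in Cxcl2-high cells, type II was -0.04 in fibroblast-like and 0.14 in Cxcl2-high cells, and Oas1a (0.44) and Stat2 (0.09) reversed in neutrophil-like cells; at 20%, type II was 1.28 for muscle endothelial-like cells, and with at least 500 genes type I was 0.11 in C1q macrophage-like cells. TMM factors, which shifted the ratios of the 6 classes by between -0.21 and 0.26, gave type I ratios of 0.24 in conventional DC2-like and -0.48 in endothelial-like cells and a type II ratio of 0.50 in endothelial-like cells. Without the top cell of each group, a choice made after seeing the data, endothelial-like ratios were -0.29 (type I) and 0.57 (type II), fibroblast-like type II was 0.89 and Retnlg-high type II was -1.07. Without the cells of highest doublet score, type II was 0.68 in endothelial-like and type I 1.01 for lung neutrophil-like cells, and totals without mitochondrial, ribosomal and rRNA-like genes gave 0.75 and 0.09 for lung neutrophil-like cells. Doubled subset thresholds gave -0.06 for Cxcl2-high type I and -0.68 for Retnlg-high type II, and halved ones -0.19 for Retnlg-high type I. Without thinning 11.8% of lung neutrophil-like cells had 4 or more type I members. The causes were not tested. Few counts limit several comparisons: 11 of 37 members were measured in fibroblast-like, 15 in conventional DC2-like and 30 in neutrophil-like cells, and in muscle neutrophil-like cells, 46 in all, several rest on 1 to 3 counts.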
